A study of Homo sapiens with 6 samples.

Results

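KMS-11 is a human multiple myeloma cell line, and its response to the BET inhibitor JQ1 was described from histone H3 lysine 27 acetylation (H3K27ac) at 838 genomic regions. No region was selected by value: all 838 of the 838 regions that the study listed were kept, and the readout was the fold change of KMS-11. The study compared 3 established myeloma lines, KMS-11, KMS-12 and RPMI8226. Each was labelled wild type and was measured by ChIP-seq with a Diagenode H3K27ac antibody, once after 72 h in 1 µM JQ1 and once with DMSO, the solvent of JQ1, at an equal volume. All 6 groups therefore held 1 library, each a culture of 1 line, so no value below has a replicate error and none was tested. The design text of the series speaks of duplicates, of RNA-seq and of a line spelled KMS-111, and the sample labels were followed here. The values are fold changes that the authors calculated for every region and line, read here as log2 of JQ1 over DMSO, although the table names neither the base nor the numerator. On this reading a value of -1 is a halving of the signal. Where 3 values of a region follow each other, they stand for KMS-11, KMS-12 and RPMI8226 in that order.

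H3K27ac marks active promoters and enhancers. BET proteins bind acetylated histones through their bromodomains and help to recruit the machinery that releases paused RNA polymerase II, and JQ1 occupies the bromodomain pocket and displaces them. Myeloma cells are malignant plasma cells, which secrete antibody at a high rate and lean on the endoplasmic reticulum (ER), its chaperones and the unfolded protein response. KMS-11 is known for a translocation that places NSD2 and FGFR3 under control of the immunoglobulin heavy chain locus.

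The regions with the lowest KMS-11 values included promoters of replication-dependent histone genes, ER genes and a plasma cell regulator, and PPP1R15B stood at the opposite end. Promoter sequences of these genes are shown as a description of their letters only. They come from RefSeq (GRCh38.p14), run 5′ to 3′ on the strand of the gene, and end at the base before the annotated start. Bases that belong to another annotated gene were removed. Capitals mark the octamer ATTTGCAT in the first 5, the ER stress response element (CCAAT, 9 bases of any kind, CCACG, on either strand) in SERP1 and XBP1, and TGATGNAA, the letters of the C/EBP-ATF response element bound by ATF4, in PPP1R15B.
H2BC7: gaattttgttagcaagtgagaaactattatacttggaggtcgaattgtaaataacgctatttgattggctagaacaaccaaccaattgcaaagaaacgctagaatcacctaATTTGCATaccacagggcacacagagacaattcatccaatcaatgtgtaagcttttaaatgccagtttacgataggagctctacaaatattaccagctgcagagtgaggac
H2BC12: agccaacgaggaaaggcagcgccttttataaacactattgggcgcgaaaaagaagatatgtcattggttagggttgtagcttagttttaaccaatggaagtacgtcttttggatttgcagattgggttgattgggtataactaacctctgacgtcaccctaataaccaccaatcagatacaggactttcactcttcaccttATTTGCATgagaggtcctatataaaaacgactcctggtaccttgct
H2BC21: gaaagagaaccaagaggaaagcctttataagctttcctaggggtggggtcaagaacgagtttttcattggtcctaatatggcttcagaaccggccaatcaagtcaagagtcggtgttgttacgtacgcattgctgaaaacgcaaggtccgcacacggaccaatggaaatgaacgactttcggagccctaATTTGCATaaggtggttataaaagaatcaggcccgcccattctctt
H2BC4: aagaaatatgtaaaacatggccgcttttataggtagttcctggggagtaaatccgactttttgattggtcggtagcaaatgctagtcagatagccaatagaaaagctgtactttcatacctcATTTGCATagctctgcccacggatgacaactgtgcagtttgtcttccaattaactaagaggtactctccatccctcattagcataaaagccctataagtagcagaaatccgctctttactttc
BHLHA15: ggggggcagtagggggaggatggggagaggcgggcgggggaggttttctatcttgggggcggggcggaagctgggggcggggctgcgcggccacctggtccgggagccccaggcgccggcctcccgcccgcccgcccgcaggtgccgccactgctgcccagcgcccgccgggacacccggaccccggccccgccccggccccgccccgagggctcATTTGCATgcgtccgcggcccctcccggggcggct
SERP1: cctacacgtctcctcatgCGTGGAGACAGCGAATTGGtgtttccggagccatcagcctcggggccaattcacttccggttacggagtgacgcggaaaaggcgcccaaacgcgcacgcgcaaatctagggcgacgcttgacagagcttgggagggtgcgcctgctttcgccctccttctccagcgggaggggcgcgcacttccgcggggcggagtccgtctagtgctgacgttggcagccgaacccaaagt
XBP1: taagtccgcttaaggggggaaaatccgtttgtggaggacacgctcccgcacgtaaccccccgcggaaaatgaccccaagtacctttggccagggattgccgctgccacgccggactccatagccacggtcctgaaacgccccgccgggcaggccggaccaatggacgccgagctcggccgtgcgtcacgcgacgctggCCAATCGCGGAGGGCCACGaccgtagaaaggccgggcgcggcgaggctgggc
PPP1R15B: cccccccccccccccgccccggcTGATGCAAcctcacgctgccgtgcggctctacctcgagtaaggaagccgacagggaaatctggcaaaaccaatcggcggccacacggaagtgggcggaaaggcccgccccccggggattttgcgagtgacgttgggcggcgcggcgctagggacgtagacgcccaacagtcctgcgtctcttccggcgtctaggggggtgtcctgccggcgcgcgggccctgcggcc

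The 4 histone H2B windows were chr6:26199294-26199515 on the plus strand (H2BC7), chr6:27146859-27147105 on the minus strand (H2BC12), chr1:149886683-149886917 on the minus strand (H2BC21) and chr6:26123927-26124171 on the minus strand (H2BC4). In each the octamer was read in the direction of the H2B gene, and its first base lay 111, 46, 46 and 123 bases before the start. The other windows were chr7:98211189-98211438 on the plus strand (BHLHA15, octamer 35 bases before the start), chr3:150546497-150546746 on the minus strand (SERP1), chr22:28800570-28800819 on the minus strand (XBP1) and chr1:204411818-204412067 on the minus strand (PPP1R15B). A listed region covered the start of all 8 genes.

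Over the 838 regions the KMS-11 values ran from -1.96 to -0.02, with quartiles of -0.85, -0.66 and -0.54. In terms of signal the median stood for 36.9% less H3K27ac after JQ1, the lowest value for 74.3% less and the highest for 1.50% less. All 838 regions had values below 0 in all 3 lines, and the number of lines recorded for each region equalled its number of values at or below -0.5, so the table had been filtered on these values and the direction is not a finding. KMS-11 was at or below -0.5 in 699 regions (83.4%) and at or below -1 in 113 (13.5%). The interquartile range of KMS-11 was 0.30, against 0.43 for KMS-12 and 0.35 for RPMI8226, so the middle of the KMS-11 values was the narrowest, while their full range was wider than that of RPMI8226, whose lowest value was -1.62. KMS-12 reached -3.86 and had 57 regions at or below -1.5, against 11 in KMS-11 and 1 in RPMI8226. KMS-11 thus had a median near that of KMS-12 (-0.69) and below that of RPMI8226 (-0.56), without the deep tail of KMS-12.

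**Figure D1:**
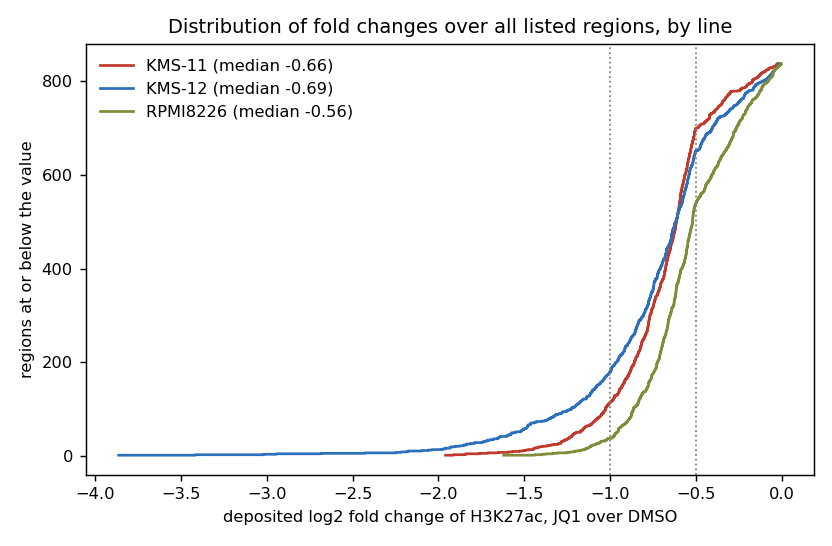
Cumulative number of regions (vertical axis) at or below each deposited log2 fold change of H3K27ac, JQ1 over DMSO (horizontal axis), with 1 curve per line and dotted lines at -1 and -0.5. The KMS-11 curve lies between the others below -1 and is the highest at -0.5, where it has reached 699 regions.

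KMS-11 was the lowest of the 3 lines in 283 regions (33.8%), the middle value in 362 and the highest in 193 (23.0%). It was below KMS-12 in 390 regions and below RPMI8226 in 538. Of the 113 regions at or below -1 in KMS-11, 59 were past -1 in KMS-11 alone, 44 also in KMS-12 but not RPMI8226, 5 also in RPMI8226 but not KMS-12, and 5 in all 3 lines. The 5 shared with RPMI8226 were at BHLHA15, GORASP2, H4C15, PABPC1 and, as the nearest gene, RCSD1. The 5 shared by all were at IRF4, DDIT4, TCEA1, HAGHL and an intergenic site nearest to ADGRL1, and these names were chosen after their values were seen. Among the 50 lowest regions of KMS-11, 15 were also among the 50 lowest of KMS-12 and 4 among those of RPMI8226, where 50 is 5.97% of all regions. Only the region nearest to ADGRL1 and a region at TRIB3 were in the lowest 50 of all 3 lines. Counted at -0.5, 299 regions (35.7%) had passed in KMS-11 and KMS-12 but not RPMI8226, 187 (22.3%) in KMS-11 and RPMI8226 but not KMS-12, and 139 (16.6%) in the other lines but not KMS-11. The remaining 213 had passed in all 3 lines.

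The lowest KMS-11 value was at ACTG1, which encodes cytoplasmic gamma-actin (chr17:81512315-81514762), where the authors' deposited table gave -1.96, -1.46 and -0.73. Next came RGS16, a GTPase activator that dampens G protein signalling, with -1.91, -1.48 and -0.90 in the authors' deposited table. All 3 lines were past -0.5 at both genes, and KMS-11 was the lowest line at both. TBC1D16, a Rab GTPase activator gene on the same chromosome as ACTG1, kept this order of lines, with -1.51, -1.12 and -0.34 in the authors' deposited table (chr17:79991981-79994728). BEND3, which encodes a transcriptional repressor of heterochromatin, had -1.44, -1.16 and -0.20 in the authors' deposited table. At PIP5KL1, a regulator of phosphoinositide kinases, the authors' deposited table gave -1.45, -0.77 and -0.45. RPMI8226 was the line nearest to 0 at all 5 of these genes.

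Of the 15 lowest KMS-11 regions, 4 lay outside genes and are named by the nearest one, which need not be their target. The region 1349 bp from ZBTB7B, a zinc finger transcription factor gene (chr1:154999312-155000401), had -1.84, -0.76 and -0.26 in the authors' deposited table. Its difference from the mean of the other lines, -1.33, was the most negative of all regions, and it was the only region that stayed lower than both by 1 or more. Another region named by ZBTB7B (chr1:155002839-155005163) did not share this order. It had -0.78, -1.55 and -0.47 in the authors' deposited table, with KMS-12 the lowest line. A region of chromosome 4 that lay 501121 bp from LOC101927209 (chr4:49709356-49711895) had -1.71, -1.64 and -0.04 in the authors' deposited table, so that KMS-11 and KMS-12 were close and RPMI8226 was near 0. At 46402 bp from FAM157A, the authors' deposited table gave -1.49, -0.20 and -0.51. The site 41620 bp from ADGRL1 was low in every line, at -1.57, -1.96 and -1.25 in the authors' deposited table. At the uncharacterised lncRNA gene LOC124903862, the authors' deposited table gave -1.59, -2.22 and -0.42, with KMS-12 the lowest line.

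Histone genes were among the lowest KMS-11 values and were less so in KMS-12. Replication-dependent histone genes lie in clusters on chromosomes 6 and 1, are transcribed in S phase and supply the core and linker histones of new chromatin. Of 99 annotated histone genes, 19 had a region, in 15 regions, with medians of -1.03, -0.54 and -0.71. Over all genes, 1029 were assigned a region, of 20037 protein coding and 18303 lncRNA genes annotated. In KMS-11 8 of the 15 histone regions (53.3%) were at or below -1, against 13.5% of all regions. KMS-12 had 0 of the 15, against 178 of all 838, and RPMI8226 had 2, against 37 of all 838. KMS-11 was the lowest line in 9 of 15 (60.0%), against 33.8% of all regions. The median rank among the 838 regions, counted from the lowest value, was 98 for KMS-11, 602 for KMS-12 and 219 for RPMI8226. Counted at -0.5, the largest histone class was KMS-11 with RPMI8226 but not KMS-12, at 7 of 15 (46.7%), against 22.3% of all regions. The commonest class of the table, the one lacking only RPMI8226, held 5 of 15 (33.3%), near its 35.7% of all regions. The class of all 3 lines held 3, against 213 of all 838, and the class lacking only KMS-11 held 0, against 16.6%.

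The region over H3C4, H2AC7 and H2BC7 (chr6:26198299-26200193) ranked 3 of 838 in KMS-11, yet 781 in KMS-12 and 93 in RPMI8226. It had -1.85, -0.18 and -0.87 in the authors' deposited table. H2BC12 and H2AC12 shared a region (chr6:27145360-27147642) with -1.76, -0.41 and -0.90 in the authors' deposited table, ranks of 5, 698 and 73. Both carry genes of core histones, and in both RPMI8226 lay between the other lines. H2BC21, H2AC20 and H2AC21, in the smaller histone cluster of chromosome 1 (chr1:149885777-149889235), had -1.44, -0.38 and -0.78 in the authors' deposited table. For H2AC6 and H2BC4 (chr6:26123259-26125803) the authors' deposited table gave -1.28, -0.14 and -0.94. The linker histone genes H1-4 and H1-3 differed in the line nearest to 0. H1-4 had -1.26, -0.23 and -0.55 in the authors' deposited table. H1-3 had -1.17, -0.61 and -0.27 in the authors' deposited table. KMS-11 was the lowest line in all 6 regions.

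The remaining histone regions were less separate. A pair of regions at H4C15 had -1.16, -0.76 and -1.31, and -1.03, -0.60 and -0.94, in the authors' deposited table. H4C5 had -0.89, -0.05 and -0.65 in the authors' deposited table, again with KMS-12 near 0. H2BC8 had -0.90, -0.91 and -0.42 in the authors' deposited table, with KMS-11 and KMS-12 close. The variant histone genes, which are expressed outside S phase as well, did not share the order of the clustered genes. H3-3A had a pair of regions at -0.85, -0.88 and -1.11, and -0.79, -0.88 and -0.11, in the authors' deposited table. H3-3B had -0.64, -0.06 and -0.71 in the authors' deposited table. H2AX had -0.55, -0.98 and -0.01 in the authors' deposited table, with KMS-12 the lowest line. H2BC18 completed the list with -0.55, -0.54 and -0.05 in the authors' deposited table. Neighbouring histone genes share regions and have near-identical copies, and the handling of multiply aligned reads is not described in the sources, so the division among single histone genes is uncertain. How many cells of each culture were in S phase was not measured, and its part in these values was not tested.

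**Figure D2:**
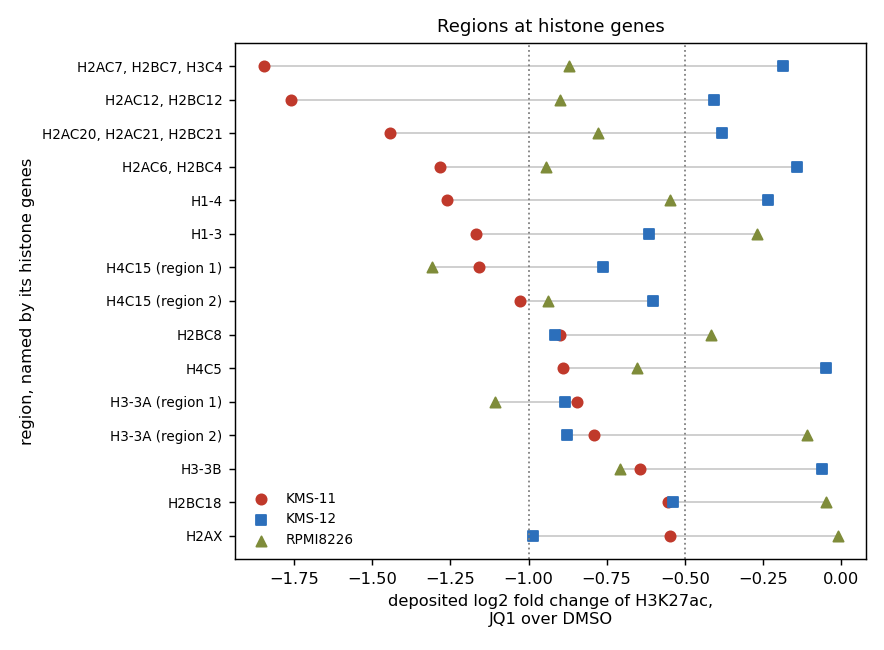
Deposited log2 fold change of H3K27ac, JQ1 over DMSO (horizontal axis), in the 15 regions at histone genes (vertical axis), with 1 symbol per line, a grey bar over their range and dotted lines at -1 and -0.5. The clustered genes at the top run from -1.85 to -1.17 in KMS-11, left of both other lines, whereas H2AX, H3-3A and H3-3B at the bottom do not.

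The low histone values could be placed along the genome. In 5 Mb bins holding at least 6 regions, the lowest KMS-11 median was that of chromosome 6 from 25 to 30 Mb, with -1.17 over 11 regions, against -0.41 in KMS-12 and -0.65 in RPMI8226. The bin of chromosome 1 from 145 to 150 Mb followed with -1.09 over 6 regions, against -0.68 and -0.71. Chromosome 6 as a whole had a KMS-11 median of -0.80 over 47 regions, the lowest of any chromosome, and -0.75 over the 40 left without histone genes. Without the histone regions the median of all regions stayed at -0.66 in KMS-11.

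The octamer printed above is a site for POU factors such as POU2F1 and is a long known element of H2B promoters. It was counted on both strands in the 250 bases before each RefSeq start. It stood in 352 of 22199 windows of protein coding genes (1.59%), in 17 of 493 windows under a listed region (3.45%), and in 12 of 61 windows under a region at or below -1 in KMS-11 (19.7%). Histone genes made up most of these. It was present in 11 of 16 histone windows under a region (68.8%), and the pair outside histone genes was BHLHA15 and SOX12. Divergent H2A and H2B genes share the bases between their starts, so 1 octamer can count for a pair of genes. Windows of 1 region were also counted apart. H2BC21, H2AC20 and H2AC21 lie in 1 region, as do H3C4, H2AC7 and H2BC7, and H2BC12 was counted at more than 1 start. These shares therefore rest on fewer regions than windows. CCAAT stood in 15 of the 16 histone windows (93.8%), against 32.7% of all windows and 33.9% of those under a listed region. The windows are a description of letters, and RefSeq starts missing from the table were not searched.

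Plasma cell genes were the list with the lowest KMS-11 median. Of 24 regulators and markers of plasma cells, 7 had a region, with medians of -1.10, -0.99 and -0.55. In KMS-11 6 of 7 (85.7%) were at or below -1, against 13.5% of all regions, and KMS-11 was the lowest line in 5 of 7 (71.4%), against 33.8%. BHLHA15, also called MIST1, drives the secretory cell programme (chr7:98211344-98212404), and the authors' deposited table gave -1.65, -0.76 and -1.62. It ranked 7 of 838 in KMS-11, only 346 in KMS-12 and 1 in RPMI8226, so here KMS-11 and RPMI8226 were close. MZB1, an ER chaperone partner for immunoglobulin, had -1.40, -0.99 and -0.07 in the authors' deposited table. TXNDC5, a protein disulfide isomerase, had -1.33, -0.99 and -0.39 in the authors' deposited table. KMS-11 was past -1 at all 3, whereas RPMI8226 was past -1 at BHLHA15 and above -0.5 at MZB1 and TXNDC5. IRF4, a master transcription factor of plasma cells, had -1.10, -1.81 and -1.07 in the authors' deposited table. FKBP11, an ER prolyl isomerase, had -1.05, -1.16 and -0.73 in the authors' deposited table. POU2F1 was the member nearest to 0 in KMS-11, with -0.59, -0.53 and -0.25 in the authors' deposited table.

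The other 17 of the 24 plasma cell genes had no listed region, and the markers of B cells, of T and NK cells, of myeloid cells and of stroma and endothelium had none at all. On the reading above a region is listed only where signal was lost in at least 2 lines. This therefore does not show whether those genes carry H3K27ac, and the identity of the line could not be checked from the table.

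Genes of the ER and the unfolded protein response also had lower medians in KMS-11 than in KMS-12. They comprise the translocon, chaperones, disulfide isomerases, the sensor IRE1 and its target XBP1, and the machinery that degrades misfolded proteins. Of 47 genes, 18 had a region, in 19 regions, with medians of -0.88, -0.57 and -0.63. The median ranks were 180, 558 and 326. KMS-11 was at or below -1 in 6 of 19 (31.6%), against 13.5% of all regions, and was the lowest line in 10 of 19 (52.6%), against 33.8%. None of the 19 was past -0.5 in KMS-11 and KMS-12 alone, the commonest class of the table at 35.7%. Most, 12 of the 19, were past in all 3 lines, against 213 of all 838 regions. A further 6 were past in KMS-11 with RPMI8226, against 22.3% of all regions, and 1 in KMS-12 with RPMI8226, against 16.6%.

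The protein-conducting channel of the ER membrane was represented by its subunits SEC61G and SEC61A1 and by its partners SERP1 and SEC63. At SEC61G (chr7:54758100-54759952) the authors' deposited table gave -1.21, -0.05 and -0.50. SEC61A1 had -1.15, -0.57 and -0.55 in the authors' deposited table. SERP1, which protects the translocon under stress, had -1.12, -0.39 and -0.72 in the authors' deposited table. SEC63, with -0.82, -0.74 and -0.62 in the authors' deposited table, was the closest of the 4 across lines. KMS-11 was the lowest line at all 4 genes. The chaperone HYOU1 had -1.13, -0.90 and -0.64 in the authors' deposited table. Disulfide isomerases were represented by P4HB and PDIA4, with -0.95, -0.47 and -0.99, and -0.92, -0.36 and -0.59, in the authors' deposited table. CALR, the lectin chaperone calreticulin, had -0.77, -0.24 and -0.57 in the authors' deposited table. KMS-12 was nearest to 0 at P4HB, PDIA4 and CALR, and KMS-11 was the lowest at PDIA4, CALR and HYOU1.

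The sensor arm and degradation genes did not all share this order. XBP1 (chr22:28798632-28801196), the transcription factor activated by IRE1, had -1.08, -0.57 and -0.55 in the authors' deposited table. ERN1, which encodes IRE1 itself, had -0.99, -1.37 and -1.37 in the authors' deposited table, so KMS-11 was nearest to 0 at the sensor and lowest at its target. SEL1L, an adaptor of the degradation machinery, had -1.30, -1.85 and -0.85 at the lower of its pair of regions in the authors' deposited table. EDEM3, a mannosidase that marks glycoproteins for degradation, had -0.88, -0.56 and -0.90 in the authors' deposited table. ERO1A, an oxidase for disulfide bonds, was nearest to 0 in KMS-11, at -0.37, -0.52 and -0.70 in the authors' deposited table.

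The ER stress response element shown above in SERP1 and XBP1 stood in 22 of 22199 protein coding windows (0.0991%) and in 4 of 493 under a listed region (0.811%). Of 15 windows of listed ER genes it was in 3 (20.0%), those of SERP1, CALR and XBP1, and CCAAT, which is part of that element, was in 12 (80.0%). Another XBP1 start under the same region (window chr22:28800078-28800327) lacked the element. TGACGTGG, the core of the unfolded protein response element, was in 1 of the 15, that of HYOU1, and in 0.626% of all windows. KMS-11 was the lowest line at all 4 of these genes, against 10 of the 19 ER regions and 33.8% of all regions. Whether the letters go with the order of lines was not tested.

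The integrated stress response, the translational stress pathway that acts through ATF4, showed another order of lines. Its 26 genes had 15 members with a region, in 16 regions, with medians of -0.80, -1.48 and -0.35. KMS-11 was at or below -1 in 5 of 16 regions, against 13.5% of all regions, and KMS-12 in 11, against 178 of all 838. KMS-12 was the lowest line in 12, against 374 of all 838, and KMS-11 in 2 (12.5%), against 33.8%, namely STC2 and ATF4. The class of KMS-11 with KMS-12 but not RPMI8226 held 10 of the 16 (62.5%), against 35.7% of all regions. RPMI8226 thus stood apart by class. By the medians of the fold changes KMS-11 took the middle, nearer to RPMI8226 than to KMS-12, which was the lowest line. The median ranks were 254 for KMS-11, 62 for KMS-12 and 634.5 for RPMI8226, so by rank KMS-11 was nearer to KMS-12.

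At the pseudokinase gene TRIB3, an ATF4 target, the authors' deposited table gave -1.53, -3.42 and -0.97. CEBPB, a C/EBP transcription factor that pairs with ATF4, had -1.07, -3.86 and -0.37 in the authors' deposited table. Both genes held the deepest values of KMS-12, from which KMS-11 differed by far more than from RPMI8226. GADD45A, a growth arrest gene, had -1.25, -1.50 and -0.30 in the authors' deposited table. STC2, which encodes a secreted glycoprotein, had -1.17, -0.67 and -0.08 in the authors' deposited table. ATF4 itself had -0.82, -0.58 and -0.65 in the authors' deposited table, a narrow range in which KMS-11 was lowest. DDIT4, an inhibitor of mTORC1, had -1.02, -1.32 and -1.09 in the authors' deposited table. VEGFA, the angiogenic growth factor, had -0.75, -2.18 and -0.04 in the authors' deposited table, with the lines spread wide and KMS-11 between them.

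PPP1R15B encodes the constitutive partner of the phosphatase that reverses eIF2α phosphorylation in this pathway (chr1:204410568-204411827), and it was among the 5 regions nearest to 0 in KMS-11. It had -0.03, -0.85 and -0.95 in the authors' deposited table, so that the other lines were past -0.5 and KMS-11 was near no change. The letters TGATGNAA, shown in its window, were in 4 of 22 windows of listed stress and amino acid genes (18.2%), those of PPP1R15B, IARS1, CHAC1 and AARS1, against 2.35% of all windows and 1.83% under a listed region. KMS-12 was lower than KMS-11 at all 4, which at PPP1R15B followed from the filter of the table. KMS-12 was the lowest line in 12 of the 16 stress regions as well, and over all 838 regions KMS-11 was below KMS-12 in 390. Whether the letters go with the order of lines was not tested.

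Amino acid genes, many of them ATF4 targets, followed the stress list. Of 14 transporter genes 6 had a region, with medians of -0.95, -1.25 and -0.46. The glutamine transporter SLC1A5 had -1.20, -1.48 and -0.45 in the authors' deposited table. SLC1A4, which carries serine and alanine, was the exception with KMS-11 lowest, at -1.0, -0.42 and -0.54 in the authors' deposited table. Of 18 synthesis genes 7 had a region, with medians of -0.68, -0.91 and -0.51. ALDH1L2, a mitochondrial folate enzyme, had -1.25, -0.91 and -0.21 in the authors' deposited table. SHMT2, the mitochondrial serine hydroxymethyltransferase, had -0.91, -1.59 and -0.41 in the authors' deposited table. Both the serine synthesis enzyme PSAT1 and the cysteine synthesis enzyme CTH were near 0 in KMS-11 alone. PSAT1 had -0.13, -0.79 and -0.68 in the authors' deposited table. CTH had -0.08, -0.82 and -0.66 in the authors' deposited table. Of 20 cytosolic aminoacyl-tRNA synthetase genes 4 had a region, all 4 past -0.5 in KMS-11 and KMS-12 alone, with medians of -0.70, -1.27 and -0.28.

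**Figure D3:**
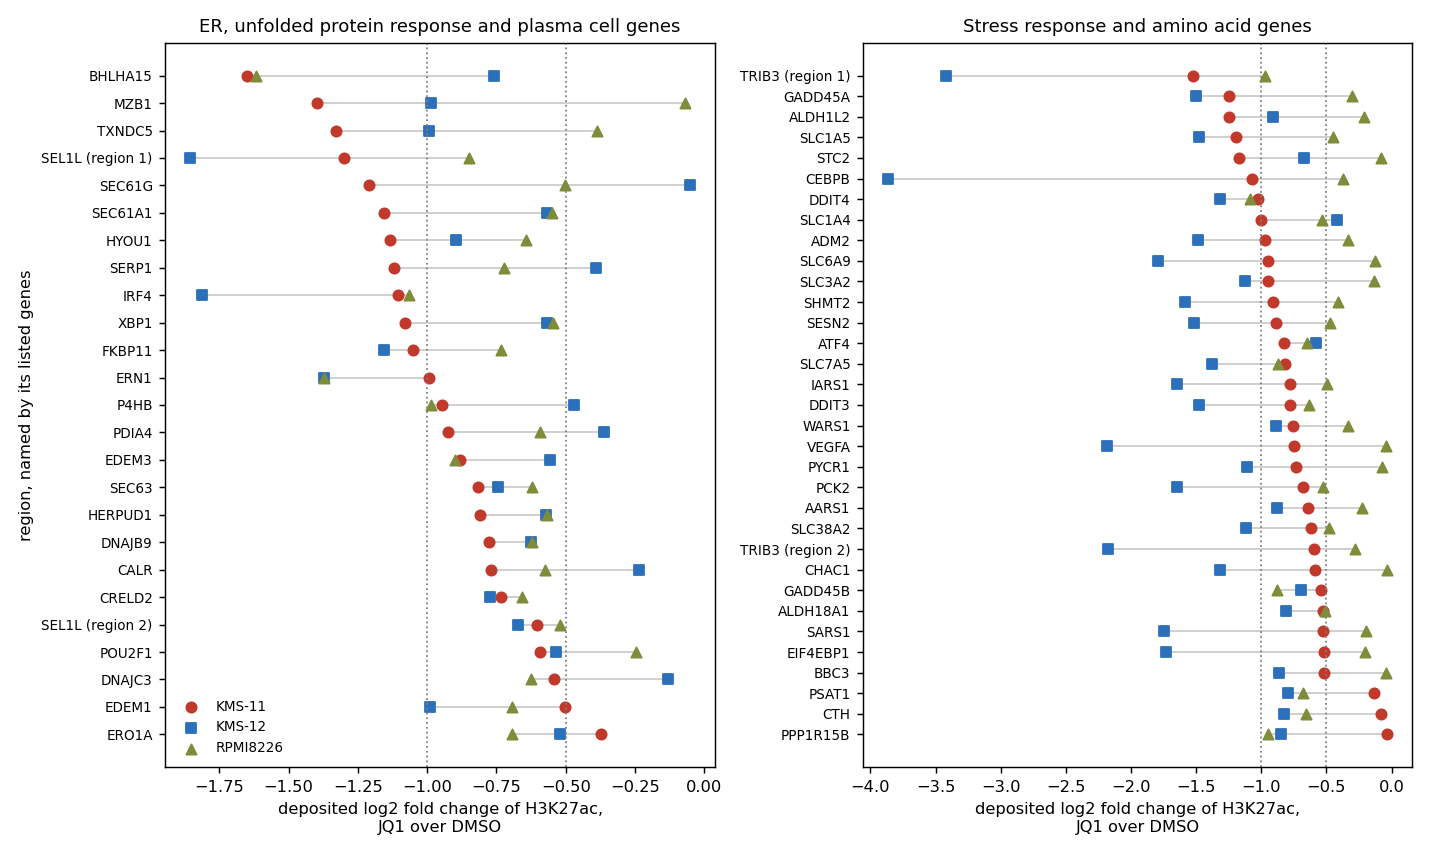
Deposited log2 fold change of H3K27ac, JQ1 over DMSO (horizontal axes, of different range), by region (vertical axes), for ER, unfolded protein response and plasma cell genes on the left and stress and amino acid genes on the right, with 1 symbol per line. KMS-11 circles lie left of the KMS-12 squares for SEC61G, SERP1 and CALR, and right of them for TRIB3, CEBPB and VEGFA.

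By the margin between lines, 17 regions (2.03%) were lower in KMS-11 than in both other lines by 0.5 or more, against 84 such regions for KMS-12 and 4 for RPMI8226. Of the 17, 6 were at clustered histone genes or their antisense RNA: those of H3C4, H2BC12, H2BC21, H1-4 and H1-3 and that of H2BC6-AS1. A further 3 were the ER genes SEC61G, SEC61A1 and XBP1. The other 8 were at FZD2, PIP5KL1, KCTD2, NFYB, LOC105375199 and, as nearest genes, ZBTB7B, FAM157A and ANKRD36B, and those names that were not among the extremes by difference were chosen after their values were seen. FZD2, a Wnt receptor gene (chr17:44556412-44557767), had -1.37, -0.02 and -0.62 in the authors' deposited table.

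In the other direction 33 regions (3.94%) were higher in KMS-11 than in both other lines by 0.5 or more, against 36 for KMS-12 and 117 for RPMI8226. The most positive difference from the mean of the others was 1.13, inside TNC, which encodes the matrix protein tenascin C (chr9:115035499-115036942). There the authors' deposited table gave -0.16, -1.72 and -0.86. CEBPB came next at 1.04, where the difference came from KMS-12 alone, since KMS-11 was lower than RPMI8226. RTN3, a reticulon that shapes ER tubules, had -0.82, -1.98 and -1.33 at 1 region and -0.23, -0.88 and -0.69 at the other in the authors' deposited table, so both regions kept 1 order of lines. WNT11, a Wnt ligand gene, had -0.57, -1.20 and -1.44 in the authors' deposited table. ARRDC1, an arrestin family gene, had -0.24, -1.10 and -0.95 in the authors' deposited table. At SYTL1, a Rab27 effector of vesicle traffic, the authors' deposited table gave -0.65, -1.84 and -1.05. RAB33A, a Golgi GTPase gene, had -0.42, -1.48 and -0.91 in the authors' deposited table. KMS-12 was the lowest line at TNC, CEBPB, RTN3, ARRDC1, SYTL1 and RAB33A, and RPMI8226 at WNT11. The region 6893 bp from PIM3 had -0.13, -1.14 and -0.66 in the authors' deposited table. A region overlapping PIM3 itself was past -0.5 in all 3 lines, at -0.67, -1.35 and -0.56 in the authors' deposited table. Among lncRNA genes, the authors' deposited table gave -0.08, -1.02 and -1.05 at 2953 bp from LOC124902283, -0.14, -1.09 and -1.02 at 3174 bp from LOC124903997, and -0.09, -0.51 and -1.21 at 122 bp from NALT1.

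KMS-11 was above -0.1 in 17 regions. The 5 nearest to 0 were at LOC124901355, GRAMD1A, INPP5E, PPP1R15B and TTC34. GRAMD1A, which encodes a sterol transfer protein of the ER, had -0.02, -0.74 and -0.74 in the authors' deposited table. INPP5E, a ciliary phosphoinositide phosphatase gene, had -0.03, -0.51 and -0.61 in the authors' deposited table. A region entered the table with values past -0.5 in at least 2 lines, so every region near 0 in KMS-11 was past -0.5 in both others by construction.

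**Figure D4:**
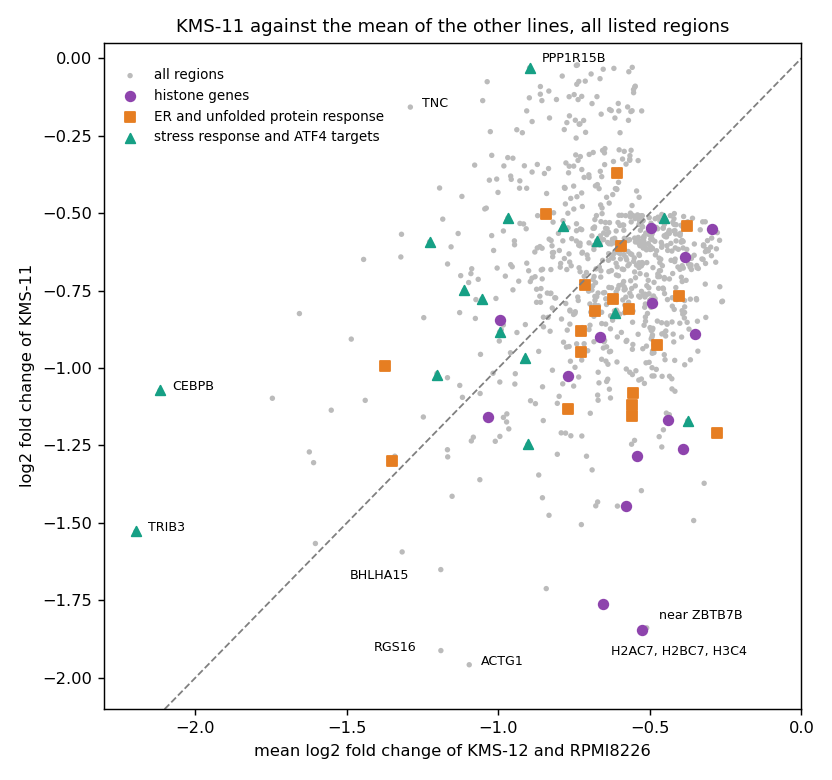
KMS-11 log2 fold change (vertical axis) against the mean of KMS-12 and RPMI8226 (horizontal axis) for the 838 regions, with histone, ER and stress genes coloured and the line of equal values dashed. Histone and ER symbols lie mostly below the dashed line, where KMS-11 is lower, down to -1.85, and most stress symbols above it, up to -0.03 at PPP1R15B.

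The loci of the translocations and drivers for which myeloma lines are known were mostly outside the table. The region nearest to NSD2 lay 409 bp outside the gene and had -0.60, -0.82 and -0.10 in the authors' deposited table. It was not among the low values of KMS-11, and it was the region nearest to FGFR3 as well, at 61679 bp. Listed regions came no nearer than 4.60 Mb to MAF, 1.48 Mb to CCND2, 113679 bp to ITGB7 and 3.36 Mb to MYC. At FLI1, the ETS factor named in the title of the study, the listed region also overlaps the lncRNA gene SENCR. It had -0.62, -0.58 and -0.28 in the authors' deposited table, close to the KMS-11 median. The lncRNA SMILO, annotated as LINC00582, had its nearest region 1.72 Mb away. An absent region means that the table lists no loss there and gives neither a level nor a change at the locus.

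**Figure D5:**
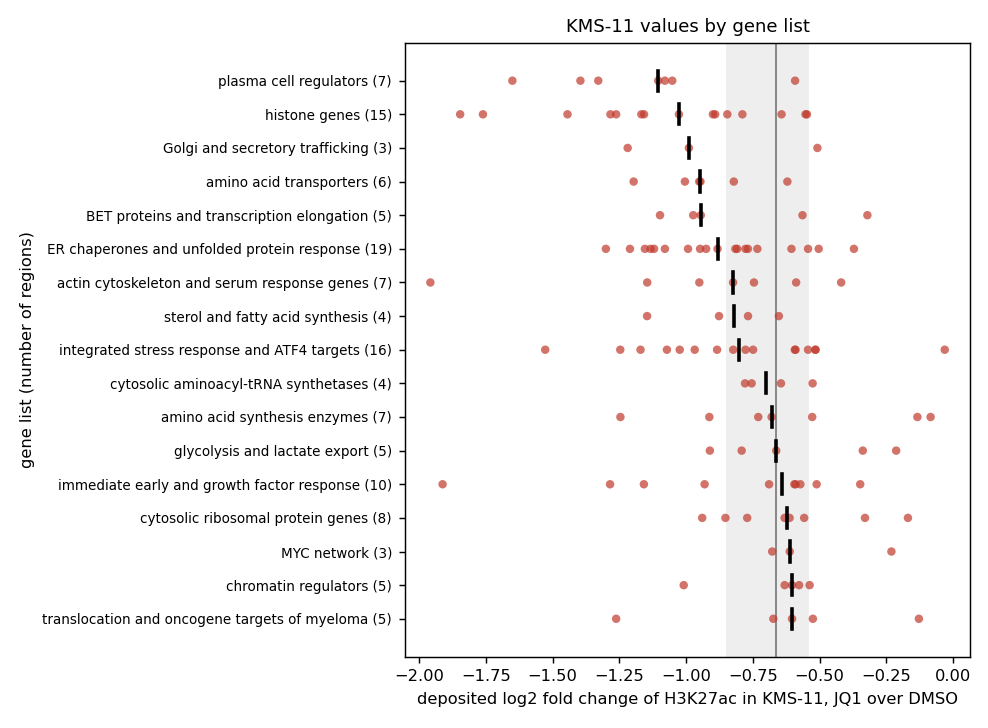
KMS-11 log2 fold change of every region (points) in each gene list with at least 3 regions, with the list median as a black bar, the median of all 838 regions as a grey line and their interquartile range as a band. Plasma cell and histone genes have medians of -1.10 and -1.03, beyond the band, whereas ribosomal protein, MYC network and chromatin genes lie near the grey line.

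Among the other lists with at least 3 regions, KMS-11 medians ran from -0.99 to -0.60. Immediate early and growth factor response genes had 9 of 38 members with a region and medians of -0.64, -1.20 and -0.63, with KMS-12 apart. Within it FOSL2, an AP-1 subunit gene, had -1.28, -1.18 and -0.24 in the authors' deposited table, and RGS16 and IER5L were the other members at or below -1 in KMS-11. Genes of BET proteins and elongation had 4 of 32 members and medians of -0.94, -0.79 and -0.51. Chromatin regulators had 5 of 50, of which EZH2, the Polycomb methyltransferase, had -1.01, -0.95 and -0.14 in the authors' deposited table. Of the MYC network 3 of 11 genes had a region, and at its antagonist MXI1 KMS-11 was near 0, with -0.23, -1.28 and -0.60 in the authors' deposited table. Golgi and secretory trafficking genes had 3 of 45, all past -0.5 in KMS-11 and RPMI8226 but not KMS-12, against 22.3% of all regions. With every gene within 1 kb assigned, 3 of 5 Golgi regions were in this class. GORASP2, a Golgi stacking protein gene, had -1.22, -0.13 and -1.40 in the authors' deposited table. Cytosolic ribosomal protein genes had 8 of 87, with medians of -0.62, -0.66 and -0.66. Targets of NF-kB and the proteasome had 0 of 29 and 0 of 38, cell cycle genes had 1 of 32, RRM2, and apoptosis genes 1 of 23, BBC3. With 1029 genes assigned a region among 20037 protein coding and 18303 lncRNA genes annotated, counts of 0 or 1 are not a finding.

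The 202 regions assigned to lncRNA genes did not stand apart in KMS-11. Their median was -0.67, against -0.66 over all regions, and 32 (15.8%) were at or below -1, against 13.5%. Regions lying across a gene boundary numbered 422, regions inside a gene 335 and regions outside genes 81, with KMS-11 medians of -0.66, -0.66 and -0.72. At or below -1 in KMS-11 were 47 of 422, 49 of 335 and 17 of 81, so this share was the highest outside genes and the lowest across a boundary. KMS-11 was the lowest line in 36.3%, 30.4% and 34.6%.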

How the data were processed

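H3K27ac ChIP-seq of KMS-11, KMS-12 and RPMI8226 was available as 1 deposited table of 838 regions with 3 columns of log2 fold changes, made by the authors as JQ1 against DMSO within each line, with 1 library for each line and treatment. Another column of the deposited table gives, per the file headers, the number of lines in common. The submitters' processing notes name MACS2, DESeq2, hg38 and GRCh38.p13 without a role. The aligner, the peak settings and the normalization are not described there or in the labels, so the depth is unknown and no interval, error or test could be had.

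A region took the names of all protein coding and lncRNA genes it overlapped in the RefSeq GRCh38.p14 annotation, otherwise of the nearest, giving 1029 genes. Widths ran from 332 to 3484 bp (median 1164 bp). The members and the gene lists were chosen with earlier results of these data known. Named were the 15 lowest KMS-11 regions, the 12 most negative and 12 most positive differences from the mean of the other lines, the 5 nearest to 0, up to 4 members per list with the lowest KMS-11 value, and NSD2, FGFR3, MAF, CCND2, ITGB7, MYC, FLI1 and LINC00582. Of the lowest regions, 1 is not reported here. Further members of the histone, plasma cell, ER and stress lists are given for completeness and were chosen after their values were seen. Motifs were searched on both strands. The scripts, in Python 3.11.15 with pandas 2.3.3, numpy 2.4.6, scipy 1.17.1 and matplotlib 3.10.9, were tested on simulated data. Alternatives were another threshold and margin, centring of each line on its median, 1 comparison line at a time, other assignments and limits, and the regions shared by all lines.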

Additional observations from a re-analysis of the deposited data

How the results depend on the processing

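With a threshold of -1 in place of -0.5, 113 KMS-11 regions were past it, against 699, and 213 regions were past -0.5 in all 3 lines. With a margin of 1 in place of 0.5, KMS-11 was lower than both other lines in 1 region and higher in 0. Centring each line on its median gave 660 regions past -0.5, 248 with KMS-11 lowest, 225 with it highest, and 18 lower and 40 higher by 0.5. The 24 named differences had been chosen as the most extreme of these same values, so a kept sign was largely fixed in advance and is no support. All 24 kept their sign after centring and against KMS-12 alone, and 23 did against RPMI8226 alone. The exception was CEBPB, with 1.04 against the mean and -0.70 against RPMI8226. Sizes depended on the line compared: 11 of these values moved by over 1.5 times, among them LOC101927209 (-0.87 to -0.07) and MZB1 (-0.87 to -0.41) against KMS-12 alone, and TNC (1.13 to 0.71) against RPMI8226 alone. The Golgi list median moved from -0.99 to -0.55 when every gene within 1 kb was assigned. Leaving out regions over 100 kb from a gene, an alternative chosen after seeing the data, gave 281 regions with KMS-11 lowest. No paired analysis was possible because the table gives 1 fold change per line and no replicates. Depth is unknown, so its limits could not be set.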

Other observations

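Cytoskeletal genes had 7 of 32 members with a region, and KMS-11 was the lowest line in 4 of them, against 33.8% of all regions. The tubulin gene TUBA1B had -1.15, -0.89 and -0.00 for KMS-11, KMS-12 and RPMI8226, the order used throughout, in the authors' deposited table. TUBB4B had -0.95, -0.36 and -0.61, and the myosin heavy chain gene MYH9 -0.82, -0.39 and -0.63, in the authors' deposited table. Sterol and fatty acid synthesis genes had 4 of 28, with medians of -0.82, -0.67 and -0.73. Among them FASN, the fatty acid synthase, had -1.15, -0.81 and -0.59 in the authors' deposited table, and the desaturase gene SCD was alike in all lines at -0.88, -1.01 and -0.97 in the authors' deposited table. Glycolysis and lactate export genes had 5 of 25 with medians of -0.66, -0.73 and -0.82, so that RPMI8226 had the lowest.

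The end of chromosome 17, from 80 to 85 Mb, held 8 regions, ACTG1 and FASN among them, with medians of -0.87, -0.80 and -0.62. Of the genes overlapped by regions, 21 had a pair of regions, whose KMS-11 values differed by 0.236 at the median. Across the 838 regions, which share 1 pair of libraries per line, the Spearman correlation of region width with the fold change was -0.126 for KMS-11, -0.136 for KMS-12 and 0.0817 for RPMI8226, all weak.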
